A study of Drosophila melanogaster with 35 samples.

Results

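The 5 annotated U1 small nuclear RNA (snRNA) genes of Drosophila melanogaster, snRNA:U1:21D, snRNA:U1:82Eb, snRNA:U1:95Ca, snRNA:U1:95Cb and snRNA:U1:95Cc, were taken by symbol from 18358 annotated genes that are not transposable elements. A peak belonged to a U1 gene when it overlapped the gene on its own strand by at least 1 nt, and 11 of the 3235 peaks in 5 peak lists did. The peaks came from iCLIP of CLAMP, a method in which ultraviolet light crosslinks a protein to the RNA it touches and the RNA is recovered with an antibody and sequenced. S2 cells are male and Kc cells female, both of embryonic origin, and each line was separated into chromatin, nucleoplasm and cytoplasm after crosslinking at 254 nm. No genetic change or drug is given in the labels, and all groups shared the crosslinking. Lists of chromatin and nucleoplasm were analysed for both lines, and of cytoplasm for Kc cells (S2 cytoplasm was not analysed here). Each line and fraction had 4 CLAMP libraries and 2 libraries without antibody, or 1 without antibody in Kc chromatin. The chromatin lists held 1416 peaks in S2 and 874 in Kc, the nucleoplasm lists 391 in S2 and 546 in Kc, and the cytoplasm list of Kc held 8. Each list is a single set of calls with no value per library, so no spread between replicates exists, no test of a difference between lists was made, and the depth is unknown. No control list was set beside them, so the peaks do not by themselves show that CLAMP touched U1.

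U1 RNA is the core of the U1 small nuclear ribonucleoprotein (snRNP), which recognises the 5′ splice site of pre-mRNA at the start of spliceosome assembly by base pairing with the 5′ end of the RNA. Downstream of that 5′ end lie stem-loops bound by the U1-70K protein and, in the fly, by Snf. Nearer the 3′ end lie the Sm site, on which the ring of Sm proteins assembles, and a terminal stem-loop. The Integrator complex cleaves snRNA precursors to form the 3′ end. CLAMP is a zinc-finger protein best known for binding GA-rich DNA and for its part in dosage compensation of the male X chromosome, and the study asked how its RNA partners differ between male and female cells and between fractions.

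The 5 U1 genes were all 164 nt long in the annotation and none was on the X. snRNA:U1:21D lies at 2L 901491 to 901654 on the minus strand, 174 nt from the nearest gene, Lsp1beta. snRNA:U1:82Eb lies at 3R 4947933 to 4948096 on the minus strand. The remaining copies are in a cluster on 3R, with snRNA:U1:95Cc at 23826334 to 23826497 and snRNA:U1:95Cb at 23827870 to 23828033, both on the plus strand and 1372 nt apart, and snRNA:U1:95Ca at 23859467 to 23859630 on the minus strand, 31433 nt beyond 95Cb. Genes 95Cb and 95Cc stand in an intron of CG34355 on the same strand as that gene. Coordinates are 1-based on dm6, and RefSeq gave the same bounds for all 5 genes. The first variant name among the RefSeq synonyms was U1a for 21D, 82Eb, 95Ca and 95Cb and U1c for 95Cc. Further synonyms of a gene were not read, so these names do not settle which variant of the RNA each copy encodes. The base sequences of the copies were not used here, so which positions tell the copies apart was not examined.

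Peaks fell in different parts of the U1 RNA in S2 and Kc cells. All 7 S2 peaks covered the 3′ end of the RNA, and all 4 Kc peaks lay between its 5′ end and its middle. Offsets were counted from 1 at the 5′ end of the annotated RNA. The S2 peaks together covered positions 109 to 164, which is 56 nt or 34.1% of the RNA. The Kc peaks together covered positions 17 to 72, also 56 nt. The lines shared 0 covered positions, with 36 nt (positions 73 to 108) between the stretches. Peak midpoints lay at 137 to 147 nt in S2 (median 139) and at 42.5 to 51 nt in Kc (median 46.5). Of 28 pairs made of an S2 peak and a Kc peak, 0 shared a base. Of 21 pairs within S2, 21 did, and of 6 pairs within Kc, 6 did. Peaks in different copies are not independent, because the copies encode near-identical RNAs and a read can align to more than one of them.

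**Figure D1:**
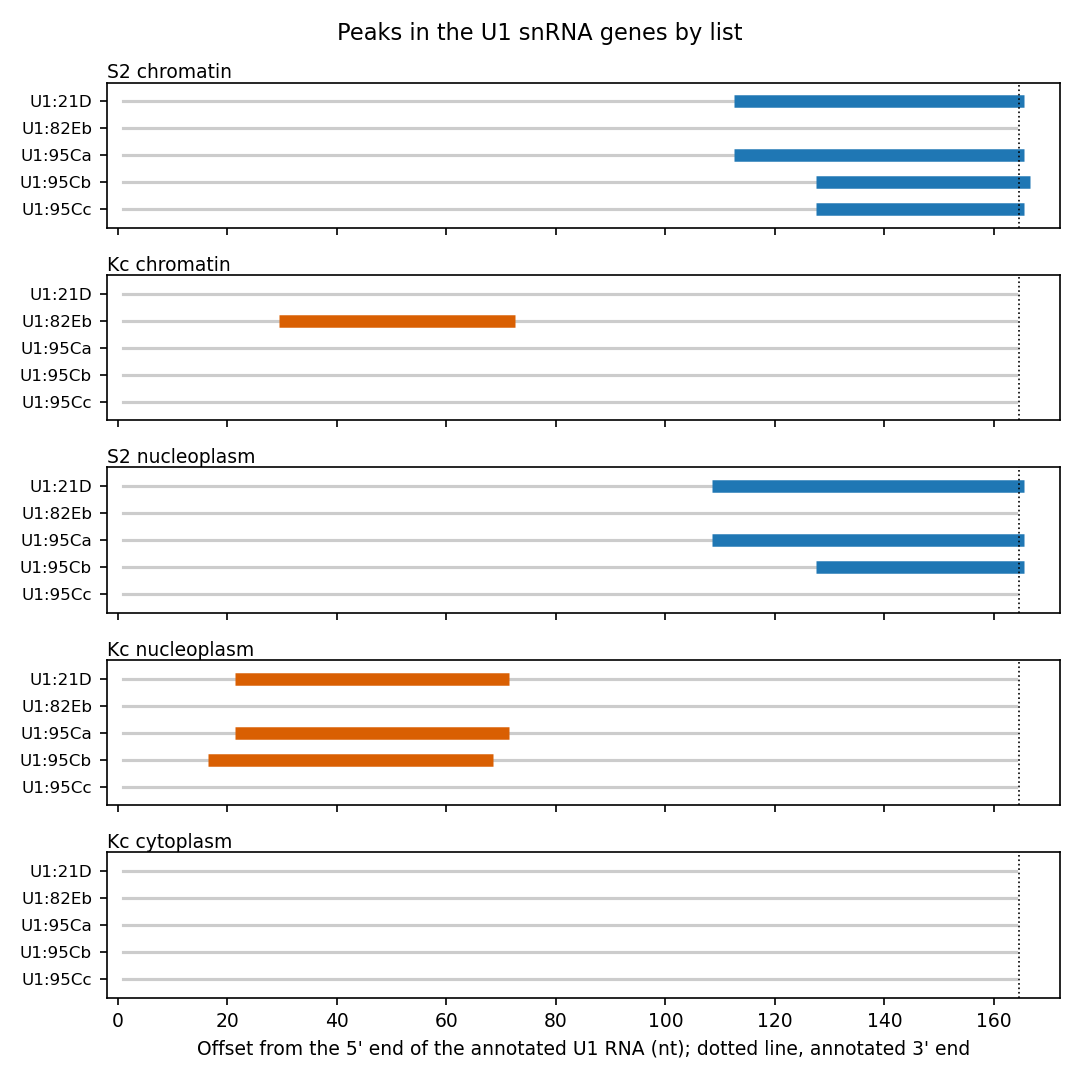
Peaks in each of the 5 U1 genes (rows) in each of the 5 lists (panels), by offset in nt from the 5′ end of the annotated RNA. Grey lines are the RNAs, thick bars the peaks (blue in S2, orange in Kc), and the dotted line is the annotated 3′ end. All 7 S2 bars cover the 3′ end, the 4 Kc bars lie between positions 17 and 72, and Kc cytoplasm has none.

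In S2 chromatin, 4 of the 5 U1 genes had a peak, 1 each, beside 3.09% of all annotated genes with a peak on an exon and 8.37% of RNA genes under 500 nt. The peaks of 21D (2L 901490 to 901542) and 95Ca (3R 23859466 to 23859518) took the same offsets, 113 to 165, and were 53 nt wide. The peak of 95Cb (3R 23827997 to 23828035) spanned offsets 128 to 166 and that of 95Cc (3R 23826461 to 23826498) offsets 128 to 165. They were 39 and 38 nt wide, near the list's median of 39 nt. The 4 peaks therefore had 2 different 5′ edges, 15 nt apart, and 3′ edges within 1 nt of each other. The split did not follow the RefSeq names that were read, U1a for 95Cb and U1c for 95Cc. It went with the genomic strand, minus for 21D and 95Ca and plus for 95Cb and 95Cc. In both nucleoplasm lists, too, 21D and 95Ca shared a 5′ edge that differed from that of 95Cb. The plus-strand copies are also those within CG34355, so strand and location cannot be told apart, and the reason for the split was not tested. Each of the 4 peaks ran 1 or 2 nt past the annotated 3′ end. Gene 82Eb had 0 peaks.

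In Kc chromatin, 1 of the 5 genes had a peak, beside 0.866% of all annotated genes and 4.18% of RNA genes under 500 nt. It was 82Eb, the copy without a peak in any other list. Its peak (3R 4948025 to 4948067) was 43 nt wide, against a list median of 58 nt, and spanned offsets 30 to 72, so its 3′ edge stopped 92 nt before the end of the RNA. The chromatin lists of the lines had no U1 gene in common. Of the RNA genes under 500 nt, U1 included, 174 carried peaks in the S2 list and 87 in the Kc list. Only 42 genes outside U1 carried peaks in both of these lists. How reads that align to several copies were placed is not given, so the lists do not show which copy was bound. The U1 peaks were 0.282% of S2 chromatin peaks (Wilson 95% interval 0.110 to 0.724%) and 0.114% of Kc chromatin peaks (0.0202 to 0.645%). These intervals overlap, cover counting error only and treat peaks as independent. With rRNA genes, rDNA and scaffolds outside the annotation left out, U1 made up 0.485% of the S2 list and 0.446% of the Kc list. In such bulk fractions, more U1 RNA and more crosslinked protein per RNA cannot be told apart.

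In S2 nucleoplasm, 3 of the 5 genes had a peak, beside 0.251% of all annotated genes and 1.20% of RNA genes under 500 nt. Genes 21D (2L 901490 to 901546) and 95Ca (3R 23859466 to 23859522) again took the same offsets, now 109 to 165, with peaks 57 nt wide. Gene 95Cb (3R 23827997 to 23828034) had offsets 128 to 165 and a width of 38 nt. Set beside S2 chromatin, the peaks of 21D and 95Ca began 4 nt further upstream in nucleoplasm and ended at the same base, and the 95Cb peak began at the same base and ended 1 nt earlier. The peaks of each gene in the 2 fractions shared 93.0% to 97.4% of their combined length. Gene 95Cc had a peak in chromatin and 0 in nucleoplasm, while its listed stretch in chromatin differed from that of 95Cb by 1 nt at one edge.

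In Kc nucleoplasm, 3 genes had a peak, beside 0.550% of all annotated genes and 1.64% of RNA genes under 500 nt. They were the same 3 copies as in S2 nucleoplasm, and how reads that align to several copies were placed is not given. Among RNA genes under 500 nt, U1 included, 25 had a peak in S2 nucleoplasm and 34 in Kc nucleoplasm. Outside U1, 5 of these genes had a peak in both nucleoplasm lists. Peaks of 21D (2L 901584 to 901633) and 95Ca (3R 23859560 to 23859609) took the same offsets once more, 22 to 71, and were 50 nt wide. The peak of 95Cb (3R 23827886 to 23827937) was 52 nt wide and spanned offsets 17 to 68. In each of the 3 copies the S2 peak and the Kc peak shared 0 bases, with peaks 38 to 57 nt wide in S2 and 50 to 52 nt wide in Kc. U1 peaks were 0.767% of the S2 nucleoplasm list (0.261 to 2.23%) and 0.549% of the Kc nucleoplasm list (0.187 to 1.60%), with overlapping intervals.

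Between the Kc fractions no copy had a peak in both lists. Among RNA genes under 500 nt, U1 included, 87 had a peak in Kc chromatin and 34 in Kc nucleoplasm. Outside U1, 12 of these genes had a peak in both Kc lists. The chromatin peak of 82Eb began 8 nt further downstream than those of 21D and 95Ca in nucleoplasm and ended 1 nt further, and all 4 Kc peaks had positions 30 to 68 in common. All 7 S2 peaks had positions 128 to 164 in common. Kc cytoplasm had 0 of 5 U1 genes with a peak, beside 0.0163% of all annotated genes and 0.0481% of RNA genes under 500 nt. Its 0 U1 peaks among 8 allow a share of peaks of up to 37.5% when 3 peaks are taken as the most that a count of 0 allows (the Wilson upper limit is 32.4%).

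Over the 5 lists, the copies fell into 3 patterns. Genes 21D, 95Ca and 95Cb each had 1 peak in both S2 lists and in Kc nucleoplasm. Gene 95Cc had 1 in S2 chromatin and gene 82Eb 1 in Kc chromatin. There were 2079 RNA genes under 500 nt, U1 included, of which 25 had a peak in S2 nucleoplasm and 34 in Kc nucleoplasm. Among those outside U1, 1 had the pattern of 21D, 95Ca and 95Cb, the serine tRNA gene tRNA:Ser-AGA-2-5. The pattern of 95Cc was shared by 94 such genes, of which the first by symbol were 7SLRNA:CR42652, RNaseMRP:RNA, lncRNA:CR43604 and mt:tRNA:Ala-TGC. The pattern of 82Eb was shared by 33, beginning with mt:tRNA:Cys-GCA, mt:tRNA:Ile-GAT, scaRNA:PsiU2-55 and scaRNA:PsiU6-40. Patterns are numbers of peaks in 5 lists, and single peaks in 1 list are common among small RNAs.

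No peak lay on the opposite strand of any U1 gene in any list. Within 5000 nt of a U1 gene the only other peaks were those of the neighbouring copies 95Cb and 95Cc. The host gene CG34355 had 3 peaks within its span in S2 chromatin, of which 2 were the U1 peaks and the other was a 23 nt intronic peak at 3R 23839242 to 23839264. In S2 nucleoplasm and Kc nucleoplasm its single peak was that of 95Cb.

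The position of U1 peaks was set beside that of peaks in the other RNA genes under 500 nt, a comparison made after the U1 offsets had been seen. Of peaks in those other genes, 103 of 184 reached the 3′ end of the RNA in S2 chromatin (56.0%) and 46 of 95 in Kc chromatin (48.4%). In nucleoplasm 15 of 24 did in S2 (62.5%) and 21 of 31 in Kc (67.7%). In U1 they numbered 7 of 7 in S2 and 0 of 4 in Kc. Transfer RNAs made up most of the other peaks at the 3′ end, with 98 of 117 peaks at the 3′ end in S2 chromatin and 36 of 36 in Kc chromatin. The 1 or 2 nt past the annotated end seen in U1 also occurred in 23 of the 103 other peaks at the 3′ end in S2 chromatin and in 6 of 15 in S2 nucleoplasm.

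**Figure D2:**
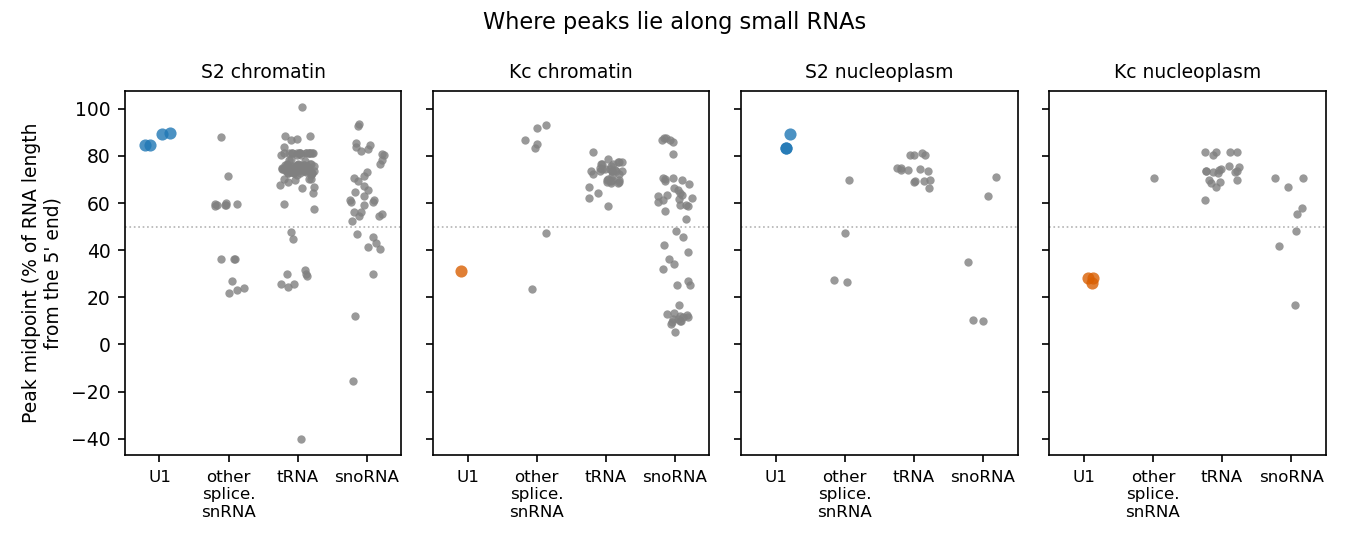
Midpoint of each peak as a percentage of RNA length from the 5′ end (vertical axis), for U1, the other spliceosomal snRNAs, tRNAs and snoRNAs (horizontal axis) in 4 lists (panels). Each point is 1 peak in 1 gene, coloured for U1, and the dotted line marks the middle of the RNA. Values outside 0 to 100% are peaks that overlap only the edge of a gene. U1 midpoints lie at 83.5 to 89.6% in S2 and 25.9 to 31.1% in Kc.

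Of peaks in the other spliceosomal snRNAs, 1 of 16 reached the 3′ end in S2 chromatin and 5 of 7 in Kc chromatin. In U1, 4 of 4 chromatin peaks of S2 cells and 0 of 1 of Kc cells did. In nucleoplasm 0 of 4 peaks in the other spliceosomal snRNAs did so in S2 and 0 of 1 in Kc. The 23 other genes had peaks in 14 members in the chromatin of S2 cells and 6 in that of Kc cells, and in nucleoplasm in 4 members in S2 and 1 in Kc, with 0 in Kc cytoplasm. Of RNA genes under 500 nt, 8.37%, 4.18%, 1.20%, 1.64% and 0.0481% had a peak in these lists, in the same order. Of the 6 U2 genes, whose RNA pairs with the branch point, 6 carried peaks in the S2 chromatin list and 4 in the Kc one. In S2 chromatin, U2:38ABa had a peak at offsets 103 to 125 of its 192 nt, against 166 to 192 in Kc chromatin. U2:38ABb likewise had offsets 102 to 123 in S2 chromatin, against 159 to 191 in Kc chromatin. In nucleoplasm, U2:34ABa had offsets 103 to 165 in S2 and 103 to 168 in Kc, so that here the lines shared 63 nt, unlike in U1.

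U4, U5 and U6 RNAs, which enter the spliceosome together, had most of their peaks in S2 chromatin. That list is also the longest, with 1416 of the 3235 peaks. Both U4:39B (offsets 20 to 43 and 70 to 102) and U4:38AB (71 to 97) had peaks only there among the 5 lists, as did U6:96Aa, U6:96Ab and U6:96Ac, all at offsets 26 to 52, and U5:14B at 4 to 55. U5:34A had a peak in Kc chromatin alone (92 to 128). U5:63BC had 2 peaks in S2 chromatin (1 to 58 and 91 to 125), of which the second shared 35 nt with the Kc chromatin peak at 73 to 132, and 1 in S2 nucleoplasm (20 to 47). U5:38ABb had peaks at 1 to 58 in S2 chromatin and 20 to 47 in S2 nucleoplasm. U2:14B had peaks at 103 to 125 in S2 chromatin and 69 to 112 in S2 nucleoplasm. U2:34ABb had a peak at 109 to 165 in S2 chromatin and one at 134 to 192 in Kc chromatin. U2:34ABc had a peak at 103 to 124 in S2 chromatin, and U2:34ABa one at 103 to 124 in S2 chromatin and a pair at 26 to 64 and 66 to 116 in Kc chromatin. The single genes of the minor spliceosome snRNAs U11, U12, U4atac and U6atac had 0 peaks in any list. As in U1, identical offsets recurred among copies of one RNA.

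Where one U1 gene had peaks in both lines, those peaks shared no base, while most other small RNA genes, chiefly tRNA and snoRNA genes, had peaks that did. RNA length was not taken into account, and an RNA shorter than the 164 nt of U1 leaves less room for peaks to lie apart. Most tRNA peaks also reached the 3′ end in both lines. How far length or position accounts for the shared bases was not tested. Between S2 nucleoplasm and Kc nucleoplasm, 3 U1 genes had peaks in both lists and 0 of the 3 shared a base, while 5 of 5 other small RNA genes did. Between S2 chromatin and Kc nucleoplasm the numbers were 0 of 3 U1 genes and 22 of 22 others. Between S2 chromatin and Kc chromatin no U1 gene could be compared, and 39 of 42 others shared bases. By class these were 24 of 24 tRNA genes, 12 of 12 snoRNA genes and 3 of 5 other spliceosomal snRNA genes. The 3 exceptions were U2:38ABa, U2:38ABb and snRNA:7SKa, named after their values were seen. Between S2 nucleoplasm and Kc chromatin, again with no U1 gene to compare, 10 of 11 others shared bases, and the exception was 1 of 2 other spliceosomal snRNA genes, U5:63BC. Within S2 cells, 3 of 3 U1 genes with peaks in chromatin and nucleoplasm shared bases, as did 21 of 21 others. Within Kc cells no U1 gene could be compared, and 12 of 12 others shared bases. The 3 U1 genes may carry 1 site listed 3 times. The other genes hold copies as well, and the 3 tRNA genes among the 5 of the nucleoplasm comparison were all copies of tRNA:Ser-AGA-2. For both reasons these counts were not tested against each other.

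**Figure D3:**
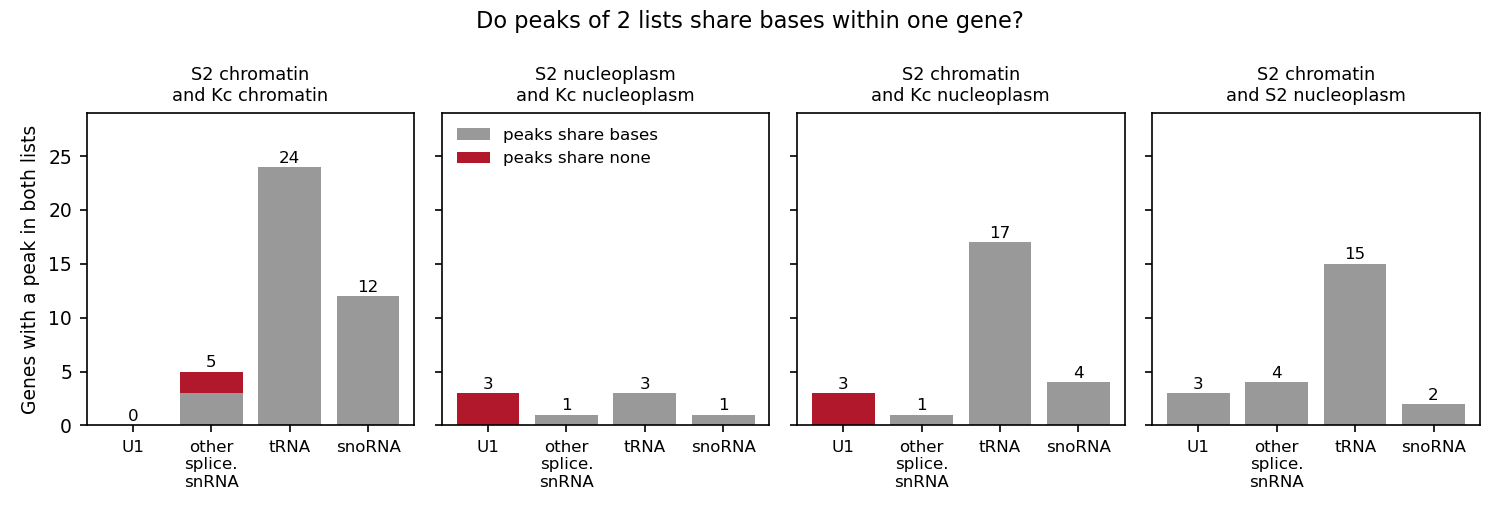
Number of genes with a peak in both lists of a pair (vertical axis) by RNA class (horizontal axis) for 4 pairs of lists (panels). Grey marks genes whose peaks in the 2 lists share at least 1 base and red those whose peaks share none, and the number over each bar is their sum. The 3 U1 genes are red in both comparisons of S2 with Kc nucleoplasm and grey between the S2 fractions.

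A list of 33 genes for the U1 proteins, the Sm proteins, the SMN complex, snRNA transport, the Integrator complex and the snRNA promoter factors had 32 members in the annotation, and 1 of them had a peak, beside 3.09% of all annotated genes in S2 chromatin, so the count is no result about these genes. It was IntS6, a subunit of the Integrator complex, with a 21 nt exonic peak in S2 chromatin at X 5742411 to 5742431. The mRNAs of snRNP-U1-70K, snRNP-U1-C and snf, which encode proteins of the U1 particle, had 0 peaks in all 5 lists. Both small Cajal body RNAs named for U1, scaRNA:MeU1:95C-A24 and scaRNA:PsiU1-6, also had 0, and were looked up after the U1 peaks had been seen. Of the roX RNAs of the male dosage compensation complex, lncRNA:roX2 had 1 peak, in S2 chromatin, and lncRNA:roX1 had 0.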

How the data were processed

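Per the labels' protocols, fractions were prepared by fractionation iCLIP, libraries carried barcodes of 4 nt and were amplified over 31 PCR cycles, and peaks were called with a Galaxy CLIP workflow. The submitters' processing notes name STAR 2.5.2b-2, cutadapt 3.5, UMI-tools and FastQC, and the build dm6. Not given in the sources used here are the peak caller, its threshold, the treatment of reads that align to several copies, and which libraries entered a list. All 4 CLAMP libraries name their list in the labels (3 of 4 in Kc nucleoplasm), and so do 1 or 2 libraries without antibody. The deposited score was 0 in every peak and was not used.

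Peaks were placed on Ensembl release 115 annotation with Python 3.11.15, pandas 2.3.3 and scipy 1.17.1, and plots drawn with matplotlib 3.10.9. The offset code was tested on simulated peaks. Background shares count genes with a peak on an exon and strand, and RNA genes under 500 nt are annotated snRNA, snoRNA, tRNA, ncRNA and miRNA precursor genes. A peak reached the 3′ end when it ended at or past the annotated end. All 5 members were named with every peak, every other spliceosomal snRNA or pathway gene with a peak was named, and up to 4 genes by symbol were named for each U1 pattern. Members and lists were chosen with earlier results of these data known. Planned comparisons of sequence identity and motifs were not made, since no sequence was used here. Alternatives changed the overlap rule, strand, peak width, merging, gene bounds and denominator.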

Additional observations from a re-analysis of the deposited data

How the results depend on the processing

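The number of U1 genes with a peak, of U1 peaks and of distinct U1 positions (1 in each list but Kc cytoplasm, with 0) stayed unchanged in all 5 lists under each alternative run. These were overlap of at least 50% of the peak, midpoint inside the gene, strand ignored, peaks of at least 30 nt, overlapping peaks merged, bounds widened by 20 nt and, for positions, midpoints within 10 nt. So did the number reaching the 3′ end, also with a tolerance of 5 nt, a result and alternative chosen after seeing the data. Several alternatives had little room to change these counts. U1 peaks were 38 to 57 nt wide in S2 and 43 to 52 nt wide in Kc. No peak lay on the opposite strand, and no U1 peak ran more than 2 nt past the annotated end. Overlapping peaks counted as 1 position, also where their edges differed. By midpoints, S2 nucleoplasm stayed at 1 position only narrowly, with midpoints at 137 and 146.5 nt against the limit of 10 nt. Only the share of peaks moved, with the denominator. Of peaks in RNA genes under 500 nt, U1 made up 2.13% in the chromatin of S2 cells and 1.04% in that of Kc cells, and 11.1% in S2 nucleoplasm and 8.82% in Kc nucleoplasm. Without rRNA genes, rDNA and scaffolds outside the annotation, the share was 7.50% in S2 nucleoplasm and 2.86% in Kc nucleoplasm, because fewer peaks remained (40 and 105). The same alternative gave 0.485% in S2 chromatin and 0.446% in Kc chromatin, within the intervals of the reported shares but bringing them close to each other. No paired analysis was possible because each line and fraction has a single list with no values per library, and no replicate could be left out. Depth is unknown, so a copy without a peak is not shown to lack crosslinks.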
